A study of Mus musculus with 5 samples.

Results

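Small intestinal organoids of genotype Lkb1 -/- whose title carries the mark Bud (Bud) were compared across all genes with small intestinal organoids of genotype Lkb1 +/- (het). Organoids are cultures of gut epithelium grown in 3 dimensions, and each group was 1 library made from 1 plate of 384 wells. The cells were chosen from the deposited tables of unique molecular identifiers (UMIs), each UMI standing for 1 captured transcript. Synthetic spike-ins were dropped, and wells were kept that held at least 1000 UMIs with at most 2% of them from Kcnq1ot1, a long non-coding RNA that is often abundant in damaged cells in plate data. This left 275 Bud cells and 291 het cells, 566 of the 1552 cells that the same rule kept in the 5 libraries of the series. The other libraries, wild-type organoids of the small intestine (WT), a second Lkb1 -/- library whose title carries the mark Cys, and wild-type fetal intestinal organoids (fetal), are used only for levels set beside those of Bud and het. Bud and het organoids were kept in 1 medium that contained Egf, Noggin and R-spondin. Their cells were separated, sorted singly into the wells and read at the 3' end of transcripts by the SORT-seq method. The sources used here do not explain the mark Bud or say which part of the gene was edited, where each line came from or whether it is 1 clone. Genotype, line and plate cannot be told apart in any value below.

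LKB1 is a protein kinase, encoded by Stk11, that phosphorylates and switches on AMPK, a sensor of low cellular energy, and a family of related kinases that includes the SIK and MARK kinases. SIK kinases keep the CRTC coactivators out of the nucleus, and CRTC proteins that enter it help the transcription factor CREB to switch on its targets. Inherited mutations of the human gene cause Peutz-Jeghers syndrome, in which polyps form in the gut. In the small intestine, stem cells that carry the receptor Lgr5 divide in the crypts and give rise to absorptive enterocytes and to the secretory goblet, Paneth, enteroendocrine and tuft cells.

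Both libraries were of like depth. Bud held 3983898 UMIs in all with a median of 13508 UMIs and 3952 genes per cell, and het held 4221440 UMIs with a median of 13347 UMIs and 3956 genes per cell. Of wells with at least 1000 UMIs, the limit on Kcnq1ot1 removed 43 of 318 in Bud (13.5%) and 60 of 351 in het (17.1%). The same 384 well names occur in both tables, 209 of them among the kept cells of both, and none of these pairs held identical counts. With 1 library a group there was no replicate and no test of a difference. Ranges in brackets are 95% counting intervals, which cover counting error only and not the spread between cultures. Levels are CPM, UMIs scaled to the total of the library so that libraries of unlike depth can be set side by side. Summed markers of immune cells stood at 7.03 CPM in Bud and 6.87 CPM in het, those of mesenchymal cells at 3.01 and 1.90 CPM, and those of endothelial cells at 4.02 and 2.84 CPM. No UMI was read in either library for 7 of 11 immune, 4 of 10 mesenchymal and 4 of 8 endothelial markers, among them the pan-leukocyte gene Ptprc, the collagen gene Col1a1 and the endothelial cadherin gene Cdh5. Epithelial keratins and adhesion genes were abundant, with Krt8 (chromosome 15) at 2324 CPM in Bud and 1653 CPM in het.

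The libraries differed along whole chromosomes or long parts of them, and this touches many single genes. Over genes with at least 20 CPM, the median log2 ratio of Bud over het was -0.36 on chromosome 1 (397 genes), 0.44 on chromosome 15 (311 genes) and 0.27 on chromosome 12 (246 genes), and 0.62 over 63 genes of chromosome 4 between 140 and 160 Mb. It was -0.40 over 50 genes of chromosome 7 from 140 Mb on, a bin that also holds Kcnq1ot1, the gene used to filter wells. On each autosome other than 1, 12 and 15 and on X the median over the whole chromosome lay between -0.06 and 0.03, and in their other bins of 20 Mb with at least 20 genes between -0.19 and 0.12. Chromosome 12 was uneven. Its median was -0.09 from 20 to 40 Mb (26 genes) and 0.02 from 40 to 60 Mb (29 genes), and lay between 0.17 and 0.39 in its other bins. Set beside WT alone, Bud lay nearer WT than het did on chromosome 1 (Bud over WT -0.06, het over WT 0.29) and on chromosome 15 (Bud over WT 0.01, het over WT -0.44). The same held on distal chromosome 4 (Bud over WT -0.05, het over WT -0.73) and distal chromosome 7 (Bud over WT 0.00, het over WT 0.38). The Cys and fetal libraries did not always side with WT. Of UMIs other than those of the ribosomal RNA gene Rn45s, chromosome 15 gave 6.26% in Bud and 6.09% in WT. It gave 4.53% in het, 4.65% in Cys and 4.71% in fetal. The median cell share of distal chromosome 4 was 0.394% in het and 0.400% in fetal, beside 0.707% in Bud, 0.698% in WT and 0.686% in Cys. On chromosome 12 het lay nearer WT than Bud did (Bud over WT 0.29, het over WT 0.01). The raised share was not particular to Bud, since chromosome 12 gave 3.86% of UMIs in Bud and 4.29% in Cys. It gave 3.08% in het, 3.06% in WT and 3.35% in fetal.

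The shares were uneven between cells. Shares of single cells leave out UMIs of Rn45s. Of cells with at least 5000 UMIs counted in this way, none of 209 Bud cells took over 6% of its UMIs from chromosome 1, against 137 of 242 het cells (56.6%). These 137 cells had a median of 7.66% beside 5.29% in the other het cells. Chromosome 15 gave over 5.5% of UMIs in 183 of 209 Bud cells (87.6%), in 1 of 242 het cells and in 167 of 212 WT cells. It did so in 5 of 272 Cys cells and 9 of 353 fetal cells. Chromosome 12 gave over 3.5% of UMIs in 168 Bud cells (80.4%), in 18 het cells (7.44%) and in 268 of 272 Cys cells (98.5%). These limits were set after the values were seen, and few cells lay within 0.25 percentage points of those for chromosomes 1 and 15, 0 and 4 Bud cells and 7 and 4 het cells. For chromosome 12, 44 Bud and 59 het cells lay that near. Y-linked transcripts were read in both libraries, with Ddx3y at 75.1 CPM in Bud and 163 CPM in het. DNA copy number was not measured, and the part these regions play in other differences was not tested. Genes named below are marked where they lie on chromosomes 1, 12, 15 or Y or on distal 4 or 7, called the marked regions.

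**Figure D1:**
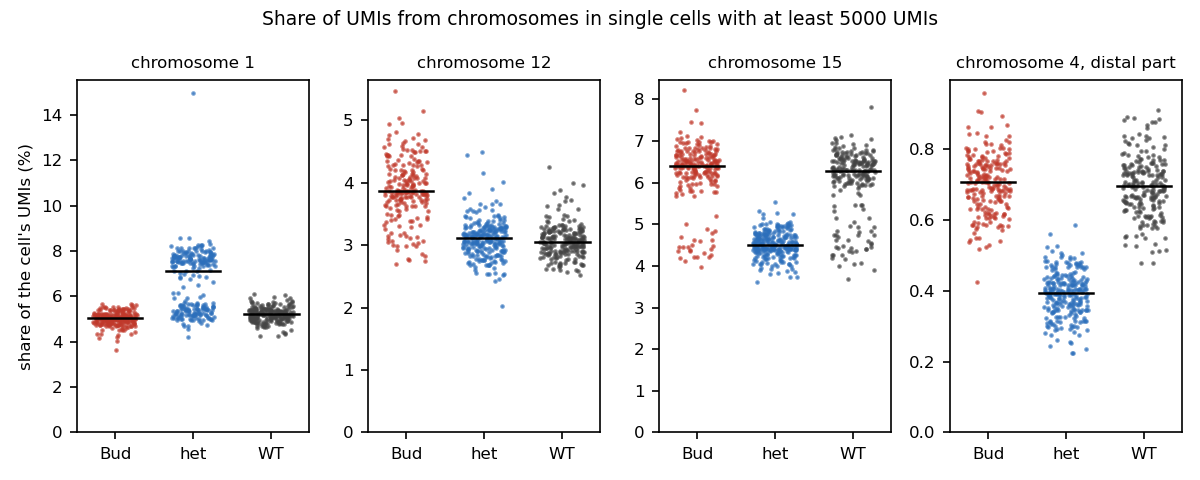
Share of a cell's UMIs (%) from chromosomes 1, 12, 15 and the part of chromosome 4 beyond 140 Mb. Each point is a cell with at least 5000 UMIs, with those of Rn45s left out, and black bars are medians. The het cells form an upper and a lower band for chromosome 1 with medians of 7.66% and 5.29%, while for chromosome 15 most Bud and WT cells lie above 5.5% and 1 het cell does.

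Stk11 itself (chromosome 10, 80115803 to 80130682, forward strand, GRCm38) stood at 12 CPM in Bud (8.88 to 16) and 14.2 CPM in het (10.8 to 18.3), a ratio of 0.848 (0.568 to 1.26), with 20.4 CPM in WT. The reads come from the 3' end of transcripts and the edited part is not given, so these levels do not check the genotype. A gene was measured where Bud and het together held at least 10 UMIs, and it was called where the ratio was at least 1.5 in either direction with a counting interval that left out 1. Of 11427 measured genes, 1043 were higher in Bud (9.13%) and 1346 were lower (11.8%), and the median log2 ratio was -0.01. Log2 ratios were taken with 10 CPM added to both levels, which understates the difference for low genes. On chromosome 1, 30.1% of genes were called lower, and on chromosome 15, 38.5% were called higher. Without chromosomes 1, 12, 15, Y and distal 4, an alternative added after the values were seen, 661 genes were higher and 1081 were lower of 9734, and without distal 7 as well 659 were higher and 1042 lower of 9610.

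**Figure D2:**
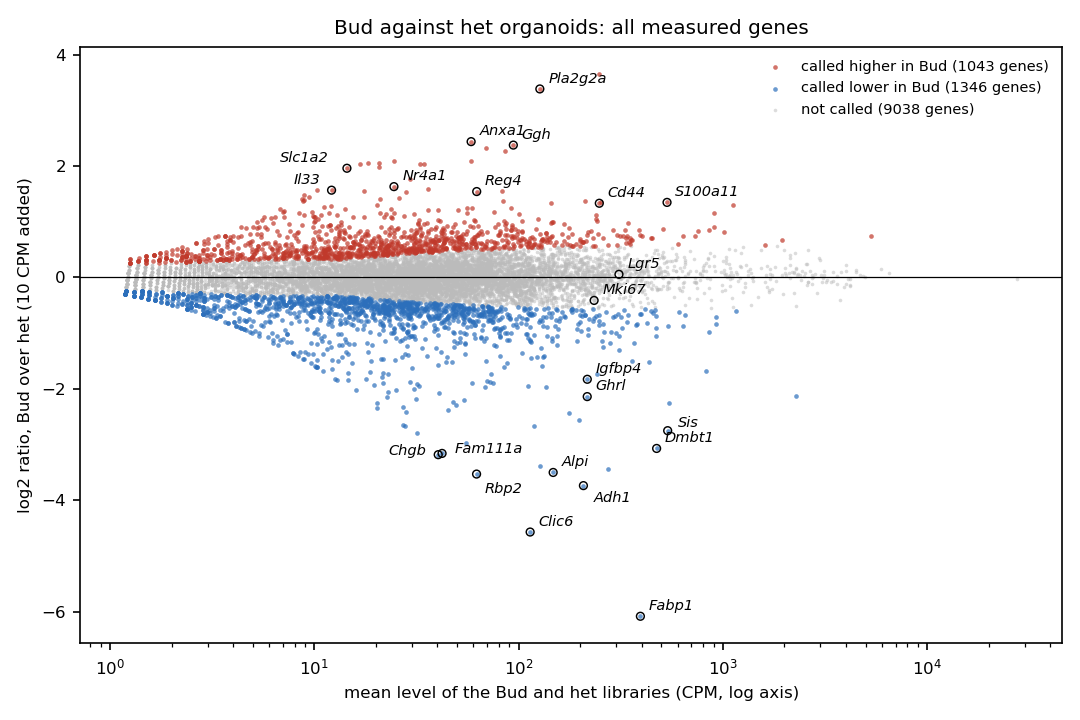
Log2 ratio of Bud over het (10 CPM added) against the mean level of both libraries (CPM, log axis), 1 point per measured gene. The 1346 genes called lower in Bud reach further from 0 than the 1043 called higher, with Fabp1 lowest, while Lgr5 lies near 0.

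Genes of the absorptive enterocyte were lower in Bud almost throughout the list. Of 17 measured members of 18 listed, 16 were lower and 0 higher, beside 11.8% and 9.13% of all measured genes, with a median log2 ratio of -2.03 against -0.01 for all genes. Their summed level was 1680.3 CPM in Bud and 7695 CPM in het, with 4097 CPM in WT. The member that was not called was Vil1, a chromosome 1 gene for the actin-bundling protein of the brush border, at 309 CPM in Bud and 395 CPM in het. Cells with little of a transcript and few cells with much of it give the same sum, so shares of cells are given after thinning every cell to 5000 UMIs, which left 213 Bud and 245 het cells.

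Fabp1, a fatty acid binding protein of enterocytes and liver cells, had the lowest log2 ratio of all measured genes. It stood at 1.76 CPM in Bud (0.706 to 3.62) and 787 CPM in het (760.4 to 814), 448-fold lower (217 to 1115), with 616 CPM in WT and 1.83 CPM in Cys. After thinning, 0.939% of Bud cells (0.114 to 3.35) and 26.1% of het cells (20.7 to 32.1) held a Fabp1 UMI. Its relative Fabp2 differed far less, with 89.9 CPM in Bud and 203 CPM in het, and a UMI in 32.9% of Bud cells and 34.3% of het cells. Rbp2, the cellular retinol binding protein of the gut, stood at 1.51 CPM in Bud and 123 CPM in het (81.6-fold lower, 37.3 to 223) and Adh1, an alcohol dehydrogenase that also oxidises retinol, at 20.3 CPM in Bud and 395 CPM in het. A single cell held 61.7% of the Adh1 UMIs of Bud, so most Bud cells had less than the level shows.

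Lipoprotein genes were lower as well. Apoa4, an apolipoprotein packed into chylomicrons, was at 4.77 CPM in Bud and 106 CPM in het, and 1.41% of Bud cells and 12.2% of het cells held a UMI. Mttp, which loads lipid onto apolipoprotein B, was at 50.2 CPM in Bud and 345 CPM in het. Apob itself, on chromosome 12, was at 26.4 CPM in Bud and 69.9 CPM in het. Of 11 measured genes of fatty acid, retinol and alcohol handling, 8 were lower and 1 higher (median log2 ratio -1.09), beside 11.8% and 9.13% of all genes. The higher one was Scd1, the desaturase that makes monounsaturated fatty acids, at 106 CPM in Bud and 55.2 CPM in het.

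Of 14 measured brush border enzymes and transporters, 12 were lower and 0 higher (median log2 ratio -1.18), beside 11.8% and 9.13% of all genes. The list summed to 919 CPM in Bud and 2759 CPM in het, with WT nearer Bud at 1449 CPM. Alpi, the intestinal alkaline phosphatase on chromosome 1, stood at 15.6 CPM in Bud and 279.5 CPM in het, with 78.0 CPM in WT, and a UMI was read in 3.76% of Bud cells and 29.8% of het cells. Sis, sucrase-isomaltase, stood at 131 CPM in Bud and 941 CPM in het, and 1 cell held 43.2% of the Bud UMIs. The aminopeptidase Anpep was 7.65-fold lower (5.12 to 11.9), the glucose transporter Slc5a1 2.46-fold lower (2.23 to 2.71) and the peptidase Dpp4 2.73-fold lower (2.20 to 3.39).

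In single cells both the bulk of the cells and a tail of strongly positive cells differed. The thinned median cell held 6 UMIs of the enterocyte list in Bud and 8 in het, and at least 5 were held by 60.6% of Bud cells (53.7 to 67.2) and 80.0% of het cells (74.4 to 84.8). At least 50 UMIs of the list were held by 4 of 213 Bud cells (1.88%, 0.514 to 4.74) and 36 of 245 het cells (14.7%, 10.5 to 19.8). The 10 cells richest in these genes held 35.2% of the list's thinned UMIs in Bud and 36.3% in het.

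**Figure D3:**
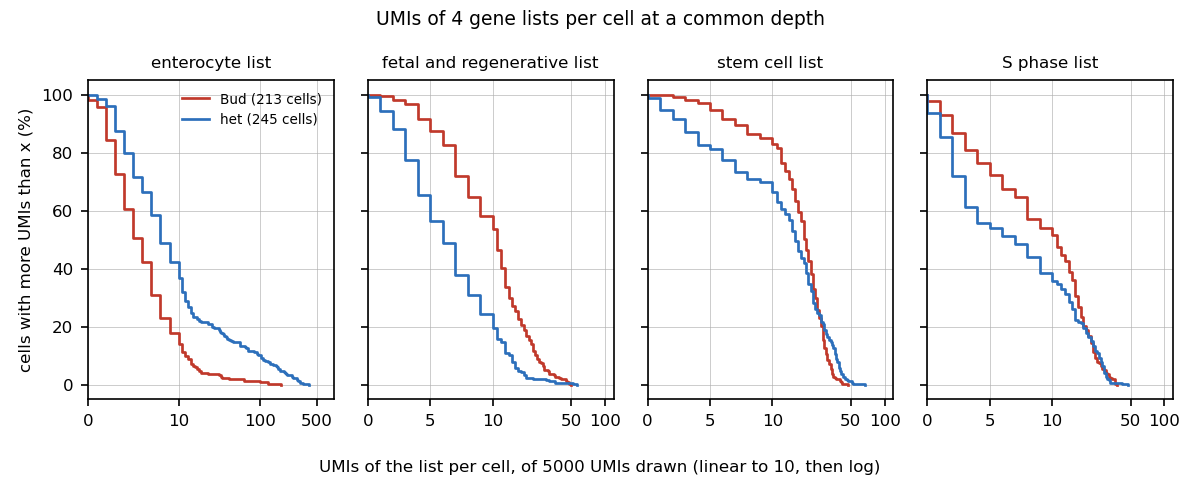
Share of cells (%) with more UMIs than the value on the x axis, for 4 gene lists, in Bud (red, 213 cells) and het (blue, 245 cells) after thinning to 5000 UMIs per cell. The het curve of the enterocyte list keeps a tail, with at least 50 UMIs in 1.88% of Bud and 14.7% of het cells, and the Bud curve of the fetal and regenerative list lies to the right of het with medians of 11 and 6 UMIs.

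Enterocyte genes were lower both in cells with an Lgr5 UMI (210 Bud and 182 het) and in cells without (65 Bud and 109 het), a split that also depends on depth. Fabp1 stood at 0.893 CPM in Bud and 249.9 CPM in het among cells with an Lgr5 UMI, and at 6.39 CPM in Bud and 1898 CPM in het among the others. By list, 15 of 17 enterocyte genes were lower in the cells with an Lgr5 UMI and 14 of 17 in those without, with none higher in either. Against the 133 het cells with at most 6% of UMIs from chromosome 1, 16 of 17 were lower (median log2 ratio -2.82), and against the 158 with more, 14 of 16 were lower (median -1.04). Fabp1 was at 1523 CPM in these het cells with the lower chromosome 1 share and at 205 CPM in those with the higher share, both above the 1.76 CPM of Bud. Without the marked regions, all 14 measured members were lower.

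Other genes with very low ratios included several of the digestive epithelium. Dmbt1, a secreted scavenger protein of mucosal defence, stood at 92.9 CPM in Bud (83.7 to 103) and 854 CPM in het (827 to 883), with 322 CPM in WT. Ces2a, a carboxylesterase, stood at 37.9 CPM in Bud and 508 CPM in het, and the sialyltransferase gene St3gal4 at 14.1 CPM in Bud and 241 CPM in het. WT lay between Bud and het for each of these, at 322, 78.2 and 61.1 CPM. AI747448 was 6.31-fold lower (5.42 to 7.38).

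A second kind of low gene was close to absent in Bud and read in most or many het cells. Clic6, of the chloride intracellular channel family, had no UMI in Bud and 228 CPM in het (213 to 243), at least 302-fold lower against a floor of 3 UMIs, and 65.3% of het cells held a UMI after thinning. It stood at 127 CPM in WT, and among het cells at 221 CPM with the lower and 233 CPM with the higher chromosome 1 share. Fam111a, which encodes a protease, stood at 0.502 CPM in Bud and 83.9 CPM in het, with 153 CPM in WT and 148 CPM in Cys. Fam149a was at 0.502 CPM in Bud and 63.2 CPM in het, and D7Ertd715e at 0.251 CPM in Bud and 55.2 CPM in het. Counted over all genes, a count made after values were seen, 22 genes had a UMI in at least 10% of het cells and at most 1% of Bud cells, and 17 genes had the opposite pattern. WT held 8 of the 22 and 6 of the 17 in at least 10% of its cells. These counts stand beside 11427 measured genes, and how many of those reached 10% of cells in Bud or het is not given. Some were low where present, such as Gyg at 8.29 CPM in het and Snx20 at 8.79 CPM in Bud.

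Of genes higher in Bud, Pla2g2a led those the rule named. It encodes a secreted phospholipase that Paneth cells of many mouse strains use against bacteria. It lies on chromosome 4 at 138831857 to 138835186 (GRCm38), just short of the 140 Mb limit used for distal chromosome 4. That limit is the border of a fixed bin, and where the shift begins was not located. Pla2g2a can therefore not be placed inside or outside the shifted part. It stood at 240.0 CPM in Bud (225 to 256) and 14 CPM in het (10.6 to 18), a ratio of 17.2 (13.2 to 22.7), with 3.28 CPM in WT and no UMI in Cys. After thinning 45.1% of Bud cells (38.3 to 52.0) and 3.67% of het cells (1.69 to 6.86) held a UMI, and the level was alike in Bud cells with an Lgr5 UMI (245 CPM) and without (214 CPM). Pla2g2a, Clic6 and Fam111a also stood in a list of genes linked to line, sex or strain. Of its 10 measured members 2 were higher in Bud and 5 lower, beside 9.13% and 11.8% of all genes. Whether these genes differ by line or by genotype was not tested. The gene with the highest log2 ratio of all, 2210407C18Rik, fell outside the naming rule and was picked after its value was seen, with 466 CPM in Bud, 28 CPM in het and 65.6 CPM in WT.

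Ggh, the lysosomal hydrolase that trims folate polyglutamates, stood at 165 CPM in Bud and 23.7 CPM in het, with 14.1 CPM in WT and 112 CPM in Cys. Fabp5, a fatty acid binding protein of epidermis and other epithelia, was the reverse of Fabp1, with 122 CPM in Bud (112 to 134) and 16.3 CPM in het (12.7 to 20.7), and with 44.9 CPM in WT. Cela1, an elastase on chromosome 15, stood at 148 CPM in Bud and 22.7 CPM in het, and Clps, the cofactor of pancreatic lipase, at 101 CPM in Bud and 16.1 CPM in het. In Bud cells with no Lgr5 UMI, Clps stood at 467 CPM, beside 32.8 CPM in those with one. Trim44, Klf9, Rnf130 and Tstd1 (the last on chromosome 1) were at 45.9, 35.6, 38.9 and 61.5 CPM in Bud and at 3.08, 0.948, 2.37 and 7.34 CPM in het, and WT stood at 69.2, 23.0, 5.55 and 87.1 CPM. Slc1a2, a glutamate transporter, had 28.9 CPM in Bud, no UMI in het, at least 40.6-fold higher against a floor of 3 UMIs, and 0.252 CPM in WT.

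**Figure D4:**
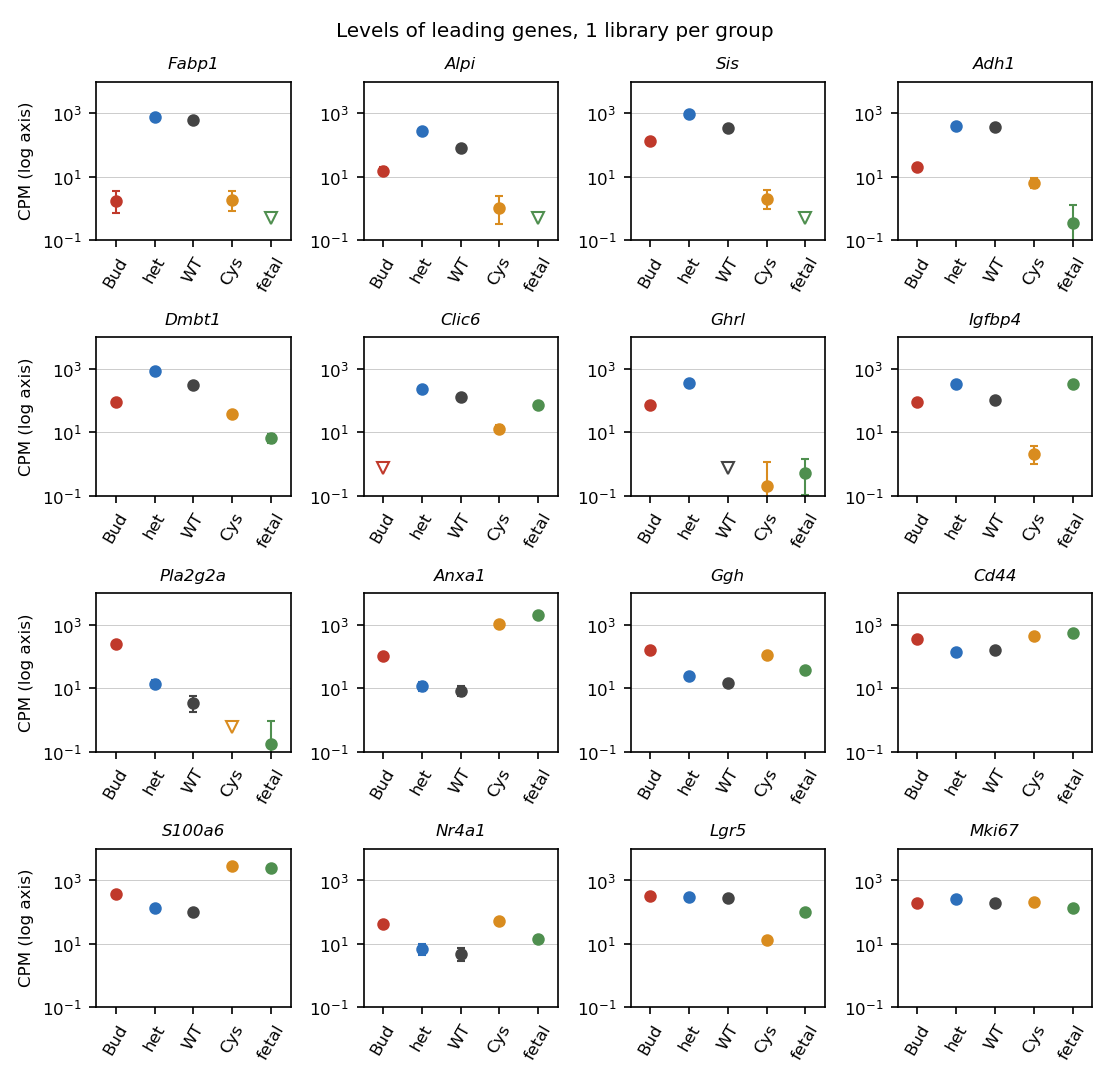
Levels (CPM, log axis) of 16 genes in the Bud, het, WT, Cys and fetal libraries, 1 library each. Points are library levels with 95% counting intervals, and open triangles mark libraries with no UMI, drawn at 3 UMIs. Fabp1 lies at 1.76 CPM in Bud against 787 CPM in het, Pla2g2a at 240.0 CPM against 14 CPM, and Lgr5 at 316 CPM against 304 CPM.

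Genes of the fetal and regenerating gut epithelium were higher in Bud in 7 of 16 measured members of 20 listed and lower in 1, beside 9.13% and 11.8% of all genes. The median log2 ratio was 0.16 and the summed level 2594 CPM in Bud and 1584 CPM in het. The higher members were Anxa1, Il33, Il1rn, Ly6a, Krt7, S100a6 and S100a11, and the lower one was Anxa5. Anxa1, a calcium-dependent phospholipid binding protein that dampens inflammation, stood at 106 CPM in Bud (95.8 to 116) and 11.4 CPM in het (8.38 to 15.1), with 1082 CPM in Cys and 1992 CPM in fetal organoids. A single cell held 27.8% of the Bud UMIs of Anxa1, yet 23.5% of Bud cells and 4.49% of het cells held one after thinning.

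S100a6, a calcium-binding protein of proliferating and repairing epithelia, stood at 367 CPM in Bud and 138 CPM in het, with a UMI in 68.5% of Bud cells and 26.5% of het cells. S100a11 stood at 769 CPM in Bud and 296 CPM in het. The alarmin cytokine Il33 stood at 23.1 CPM in Bud (18.6 to 28.3) and 1.18 CPM in het (0.385 to 2.76), with 1529.9 CPM in Cys. Ly6a, the surface protein known as Sca-1, and Krt7, a keratin of simple ductal epithelia, lie on chromosome 15, and stood at 18.3 and 424 CPM in Bud and at 4.97 and 269.6 CPM in het. Without the marked regions 5 of 14 measured members were higher and 1 was lower. Clu, a marker of revival stem cells, was not called, at 11.8 CPM in Bud and 11.6 CPM in het, far below the 3425 CPM of Cys. The thinned median cell held 11 UMIs of this list in Bud and 6 in het.

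Bud was not uniformly higher in related groups, whose counts stand beside 9.13% higher and 11.8% lower among all genes. Of 21 measured annexins and S100 proteins, 6 were higher and 5 lower, among the lower ones Anxa13, an enterocyte annexin on chromosome 15, at 323 CPM in Bud and 619 CPM in het. Of 12 measured targets of the YAP and TAZ coactivators, 4 were higher and 2 lower (median log2 ratio 0.00). F3, tissue factor, was at 18.8 CPM in Bud and 4.97 CPM in het, whereas Cyr61 was at 27.1 CPM in Bud and 44.8 CPM in het. Of 7 measured genes of gastric epithelium of 15 listed, 5 were higher and 1 lower, all at low levels. The pepsinogen gene Pgc, at 11.8 CPM in Bud and 0.474 CPM in het with 17.7 CPM in WT, and the stomach surface protein gene Vsig1, at 11.5 CPM in Bud and 0.948 CPM in het, had the highest levels of these 5 in Bud.

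Of 15 measured stem cell genes 3 were higher and 1 lower, beside 9.13% and 11.8% of all genes (median log2 ratio 0.29). The thinned median cell held 20 UMIs of this list in Bud and 16 in het, and at least 5 were held by 97.2% of Bud cells (94.0 to 99) and 82.4% of het cells (77.1 to 87.0). Lgr5, the R-spondin receptor of crypt stem cells, stood at 316 CPM in Bud (299 to 334) and 304 CPM in het (287 to 321), a ratio of 1.04 (0.961 to 1.12). A UMI of Lgr5 was nonetheless found in more Bud cells, 63.8% (57.0 to 70.3) against 54.7% of het cells (48.2 to 61.0) after thinning, intervals that overlap, and the mean level in cells with a UMI was 375 CPM in Bud and 451 CPM in het. Ascl2, the transcription factor of these cells on distal chromosome 7, stood at 155 CPM in Bud and 146 CPM in het, and Smoc2 at 329 CPM in Bud and 297 CPM in het. The 3 higher members were Cd44, Rgmb and Tnfrsf19. Cd44, a hyaluronan receptor of the crypt base, stood at 359 CPM in Bud (341 to 379) and 137 CPM in het (126 to 149), with 155 CPM in WT and 438 CPM in Cys. It was higher both in cells with an Lgr5 UMI (380.3 CPM in Bud, 173 CPM in het) and in those without (248 CPM in Bud, 63.2 CPM in het). The lower member was Igfbp4, a secreted binding protein of insulin-like growth factors that also restrains WNT receptors, at 89.6 CPM in Bud and 344 CPM in het. WT stood near Bud for Igfbp4, at 105 CPM.

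In library levels, proliferation genes differed by less than the limit for a call with 1 exception. Of 16 measured genes of S phase, 1 was higher, the ribonucleotide reductase subunit Rrm2 on chromosome 12, at 130.0 CPM in Bud and 68.2 CPM in het, with 150.4 CPM in WT, and none was lower (median log2 ratio 0.32). After thinning, the median cell held 11 UMIs of the S phase list in Bud and 7 in het. At least 5 were held by 76.5% of Bud cells (70.25 to 82.05) and 55.9% of het cells (49.46 to 62.23). None of 16 genes of the G2 and M phases was called, and the thinned median cell held 2 UMIs of that list in Bud and 2 in het. Mki67, which is made in cycling cells, stood at 199 CPM in Bud and 269 CPM in het, a ratio of 0.741 (0.676 to 0.812). In cells with no Lgr5 UMI, 12 of 15 measured S phase genes were higher in Bud, whereas in cells with one none of 16 was called. The genes of G2 and M went the other way in cells with no Lgr5 UMI, with 5 of 16 lower in Bud, none higher and a median log2 ratio of -0.46. Among those without, the helicase subunit Mcm2 stood at 65.5 CPM in Bud and 17.4 CPM in het.

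The secretory lineages did not move as one. Of 14 measured goblet cell genes, 3 were higher and 4 lower, beside 9.13% and 11.8% of all genes. Atoh1 and Spdef, transcription factors of secretory cells, were higher, at 21.8 and 14.6 CPM in Bud and 10.9 and 7.11 CPM in het. Tff3, the trefoil peptide of goblet cells, was not called, at 1142 CPM in Bud and 1110.3 CPM in het, whereas Fcgbp, a mucus protein, was at 220.1 CPM in Bud and 649.8 CPM in het. The mucin Muc2, on distal chromosome 7, stood at 121 CPM in Bud and 183 CPM in het, but 1 cell held 83.4% of its Bud UMIs and 1 cell 41.1% of its het UMIs. In cells with an Lgr5 UMI its log2 ratio was 1.48, and against the het cells with a high chromosome 1 share 1.06. At least 50 UMIs of the goblet list were held by 8.45% of thinned Bud cells and 8.16% of het cells.

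Of 7 measured Paneth cell genes, 2 were higher and 4 lower (median log2 ratio -0.45), beside 9.13% and 11.8% of all genes. Against the het cells with a low chromosome 1 share 3 were higher and 1 lower (median 0.11), and in cells with no Lgr5 UMI 2 were higher and 3 lower (median 0.31). Without the marked regions 2 of 6 were higher and 3 lower (median 0.03). Lyz1, lysozyme, had a ratio of 1.47, just under the limit, with 151 CPM in Bud and 103 CPM in het. Itln1, a lectin that binds microbial sugars and lies on chromosome 1, stood at 49.4 CPM in Bud and 223 CPM in het, and 1 het cell held 60.8% of its UMIs. Against the het cells with a low chromosome 1 share its log2 ratio was 0.11. Mmp7, the protease that activates the defensins, stood at 39.7 CPM in Bud and 74.6 CPM in het, with a log2 ratio of 0.31 in cells with no Lgr5 UMI. Counts of the defensin Defa24 are uncertain because near-identical genes share reads. Of 11 measured genes of epithelial defence, 4 were higher and 4 lower. The defence list summed to 980 CPM in Bud, 2146 CPM in het and 1102 CPM in WT. The antimicrobial lectin Reg3g stood at 31.4 CPM in Bud and 108 CPM in het, and the immunoglobulin transporter Pigr on chromosome 1 at 572 CPM in Bud and 1134 CPM in het, whereas Reg1 was at 20.1 CPM in Bud and 3.55 CPM in het with 73.8% of its Bud UMIs in 1 cell.

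Enteroendocrine genes were lower in 9 of 12 measured members and higher in 1, beside 11.8% and 9.13% of all genes, with a median log2 ratio of -0.96, or -2.39 with no CPM added and genes at 0 placed at 3 UMIs. The summed level of the list was 299 CPM in Bud, 680 CPM in het and 310 CPM in WT, so WT stood near Bud. A single cell held 34.4% of the list's thinned UMIs in Bud and 61.9% in het. Cells with at least 5 UMIs of the list made up 5.16% of thinned Bud cells (2.61 to 9.05) and 5.31% of het cells (2.86 to 8.90), and those with at least 50 made up 1.88% and 0.816%. The granule proteins Chga (chromosome 12) and Chgb, the hormones Cck and Tac1 and the transcription factor Fev (chromosome 1) had no UMI in Bud and stood at 20.4, 80.8, 25.3, 16.6 and 20.1 CPM in het. These rested on few cells, since 1 het cell held 94.2% of the Chga UMIs and 88.8% of those of Cck. Ghrl, ghrelin, stood at 73.8 CPM in Bud, 359 CPM in het and no UMI in WT, with 62.6% of its Bud UMIs and 87.8% of its het UMIs in 1 cell each, and its log2 ratio was 0.033 against het cells with a low chromosome 1 share. Neurog3, the factor that commits cells to this lineage, was not called, at 119 CPM in Bud and 107 CPM in het. Reg4 was the higher one, at 97.6 CPM in Bud and 27.0 CPM in het, and 1 cell held 32.1% of its Bud and 43.0% of its het UMIs. All 7 measured tuft cell genes were lower, among them the cation channel Trpm5 (distal chromosome 7) at 2.76 CPM in Bud and 42.9 CPM in het. The tuft list summed to 6.28 CPM in Bud, 113 CPM in het and 19.7 CPM in WT, so WT stood nearer Bud here too. At least 5 UMIs of the tuft list were held by 0 of 213 Bud cells, which allows a share of up to 1.72%, and by 6 of 245 het cells (2.45%).

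**Figure D5:**
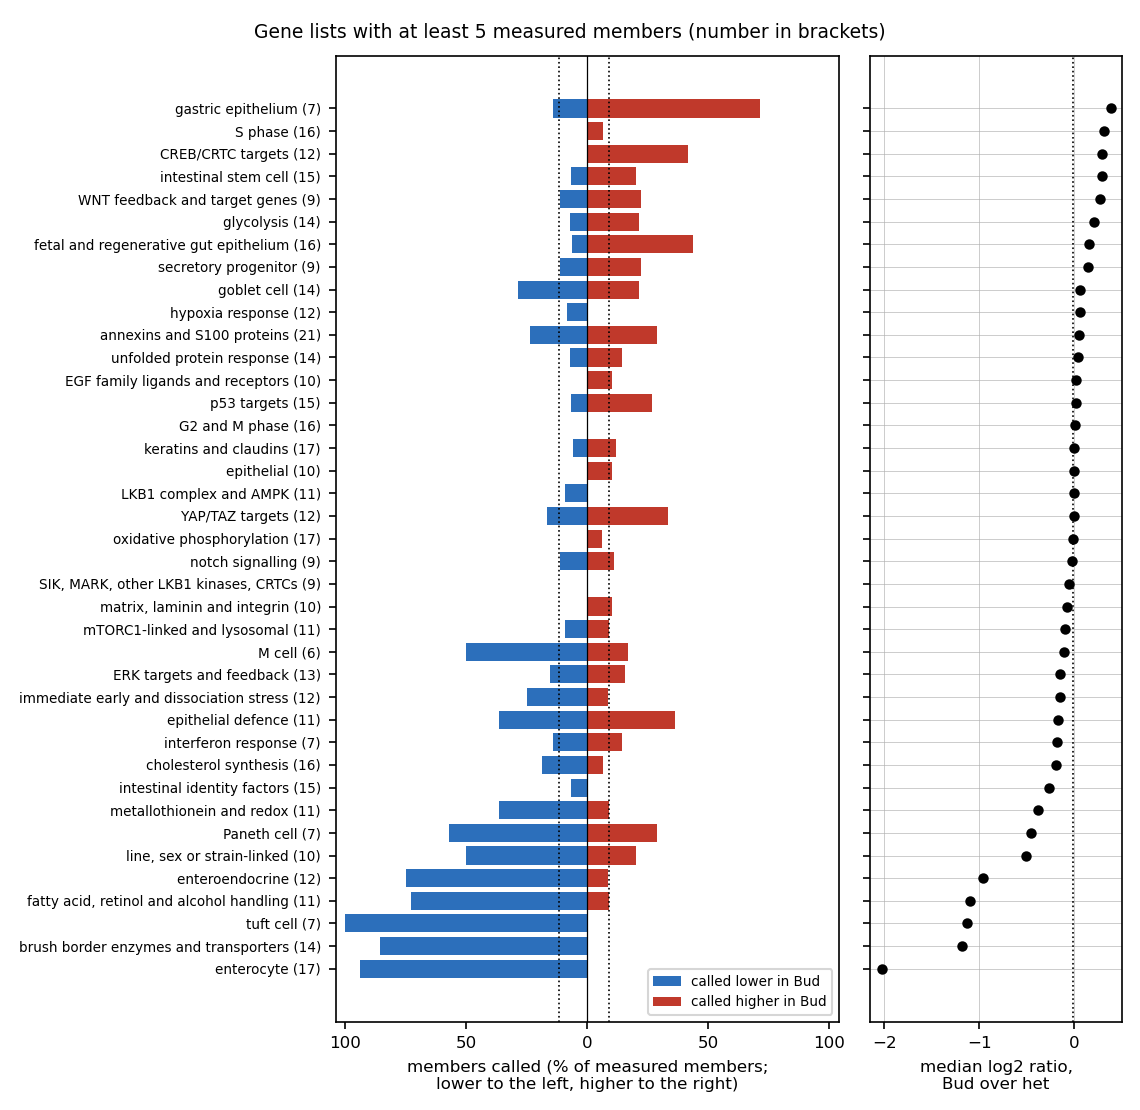
For gene lists with at least 5 measured members, the left panel shows the percentage of measured members called lower (blue) and higher (red) in Bud, with dotted lines at the 11.8% and 9.13% of all measured genes, and the right panel the median log2 ratio of Bud over het with the median of all genes dotted. The enterocyte list stands at the bottom with a median of -2.03, and the gastric and CREB/CRTC lists stand near the top with medians of 0.39 and 0.30.

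Few genes of the LKB1 pathway itself were called, beside 20.9% of all measured genes called in either direction. In lists this short, a low count says little about the pathway. In the list of the LKB1 complex and AMPK, 1 of 11 measured genes was called, the AMPK subunit Prkag2, at 28.4 CPM in Bud and 44.1 CPM in het. Of 9 measured SIK, MARK and related kinases and CRTC coactivators, none was called. Sik3 was at 29.9 CPM in Bud and 43.8 CPM in het, and Mark3, on chromosome 12, was at 77.6 CPM in Bud and 55.9 CPM in het. Kinase activity is not visible in these counts.

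Targets of CREB and its CRTC coactivators were higher in Bud in 5 of 12 measured members and lower in none, beside 9.13% and 11.8% of all genes, with a median log2 ratio of 0.30. Nr4a1, an orphan nuclear receptor induced within minutes of a stimulus, stood at 42.2 CPM in Bud (36.0 to 49.1) and 6.87 CPM in het (4.60 to 9.87), a ratio of 6.14 (4.12 to 9.45), with 4.8 CPM in WT and 54.4 CPM in Cys. It lies on chromosome 15, where Bud over het was 0.44 at the median, against a log2 ratio of 1.63 for Nr4a1. After thinning 16.4% of Bud cells (11.7 to 22.1) and 3.67% of het cells (1.69 to 6.86) held a UMI. Its relative Nr4a2 stood at 10.5 CPM in Bud and 4.26 CPM in het. The phosphodiesterase Pde4b, which degrades cyclic AMP, was at 17.3 CPM in Bud and 4.5 CPM in het, Crem, a CREB relative, at 7.78 CPM in Bud and 3.55 CPM in het, and Id1, an inhibitor of differentiation factors, at 83.8 CPM in Bud and 44.3 CPM in het. Without the marked regions 4 of 10 measured members were higher and none lower.

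Fos, on chromosome 12, was not called, at 168 CPM in Bud and 128 CPM in het, and the SIK kinase Sik1, which CREB induces, was at 4.02 CPM in Bud and 1.90 CPM in het with an interval of the ratio from 0.856 to 5.72. Some CREB targets also respond to the stress of breaking tissue apart. Of 12 measured immediate early and dissociation stress genes, 1 was higher, Ier3, and 3 were lower, Egr1, Fosb and Zfp36, beside 9.13% and 11.8% of all genes. Egr1 stood at 56.0 CPM in Bud and 102 CPM in het, and Fosb at 1.76 CPM in Bud and 22.7 CPM in het. The part of these stress genes in the other values was not tested.

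The promoters of Nr4a1 and Nr4a2, the NR4A genes called higher, are shown because CREB is known to bind the sequence TGACGTCA and the shorter TGACG inside it. Nr4a3, whose window also holds TGACG, had too few UMIs to be measured and is not shown. They are RefSeq windows of GRCm38.p6 from 250 bases before to 50 after the start of the gene, written 5' to 3' on the strand of the gene. Capitals mark TGACG or CGTCA, the same letters read on the other strand.
Nr4a1, chr15:101266596-101266895, forward strand: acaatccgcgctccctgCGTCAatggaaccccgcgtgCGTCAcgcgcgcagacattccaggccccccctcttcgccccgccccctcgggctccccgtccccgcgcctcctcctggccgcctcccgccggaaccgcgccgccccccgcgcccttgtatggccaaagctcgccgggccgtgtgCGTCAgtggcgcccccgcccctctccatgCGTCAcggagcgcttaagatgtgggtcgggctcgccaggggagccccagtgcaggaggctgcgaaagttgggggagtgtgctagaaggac
Nr4a2, chr2:57123954-57124253, reverse strand: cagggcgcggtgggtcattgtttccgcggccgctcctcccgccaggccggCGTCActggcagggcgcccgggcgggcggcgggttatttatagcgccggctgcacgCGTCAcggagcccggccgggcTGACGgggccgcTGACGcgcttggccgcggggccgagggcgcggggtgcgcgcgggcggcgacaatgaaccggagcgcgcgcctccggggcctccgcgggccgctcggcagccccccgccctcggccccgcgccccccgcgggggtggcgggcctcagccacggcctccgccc
Each of the 2 windows holds 4 of these short sites. On either strand, TGACG occurred in 20.8% of all 32851 promoter windows and in 10 of the 12 CREB/CRTC targets with a window, and the full TGACGTCA, which contains the short one, in 1.79% of all windows and in 2 of these 12, Areg and Dusp1. Neither Areg nor Dusp1 was called, with Areg at 20.3 CPM in Bud and 27.2 CPM in het. Of the other targets with TGACG, Nr4a1, Nr4a2 and Pde4b were higher, Fos, Per1 and Ppargc1a were not called, and Nr4a3 and Pck1 were not measured. Crem and Id1, which were higher as well, are not among the targets with TGACG. Because the list is made up of CREB/CRTC targets, its share of these sites says nothing about Bud against het. A match of letters is not a bound site.

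The promoters of 3 enterocyte genes with very low ratios are shown beside them. Capitals mark TATAAA (the TATA box), CAAAGTC and the longer CAAAGTCCA that contains it (recognised by the enterocyte factors HNF4A and HNF4G), and TTTATGG (recognised by the intestinal factors CDX1 and CDX2), on either strand.
Fabp1, chr6:71199629-71199928, forward strand: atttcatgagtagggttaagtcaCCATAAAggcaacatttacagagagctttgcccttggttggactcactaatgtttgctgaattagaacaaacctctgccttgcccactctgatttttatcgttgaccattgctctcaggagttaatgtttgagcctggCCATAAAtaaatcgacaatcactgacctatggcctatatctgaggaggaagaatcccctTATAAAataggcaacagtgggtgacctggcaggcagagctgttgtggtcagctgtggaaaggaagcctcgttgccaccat
Alpi, chr1:87101557-87101856, reverse strand: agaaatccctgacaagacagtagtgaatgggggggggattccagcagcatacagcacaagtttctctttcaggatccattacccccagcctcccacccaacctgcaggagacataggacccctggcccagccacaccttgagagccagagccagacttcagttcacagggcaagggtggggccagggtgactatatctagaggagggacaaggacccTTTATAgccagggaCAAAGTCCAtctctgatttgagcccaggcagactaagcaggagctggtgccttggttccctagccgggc
Rbp2, chr9:98490287-98490586, forward strand: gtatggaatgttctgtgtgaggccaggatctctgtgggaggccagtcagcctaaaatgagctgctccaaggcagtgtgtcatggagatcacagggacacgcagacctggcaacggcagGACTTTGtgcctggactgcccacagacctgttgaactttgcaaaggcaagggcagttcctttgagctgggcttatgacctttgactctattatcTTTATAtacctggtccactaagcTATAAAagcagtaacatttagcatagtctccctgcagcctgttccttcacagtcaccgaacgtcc
TATAAA occurred in 13.6% of all windows and in 6 of the 15 enterocyte genes with a window, CAAAGTC in 4.44% and in 2 (Alpi and Rbp2), CAAAGTCCA in 0.475% and in 1 (Alpi), and TTTATGG in 2.75% and in 1 (Fabp1). Of the factors named, Hnf4g was the 1 member called lower of 15 measured intestinal identity factors, beside 11.8% of all genes. Hnf4g stood at 66.8 CPM in Bud (59.0 to 75.3) and 197 CPM in het (184 to 211). Hnf4a stood at 443 CPM in Bud and 514 CPM in het, Cdx1 at 266 CPM in Bud and 245 CPM in het, and Cdx2 at 42.7 CPM in Bud and 36.5 CPM in het, none of them called.

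The remaining lists held few calls or calls in both directions, and their counts stand beside 9.13% higher and 11.8% lower among all genes. Of 13 measured ERK targets, 2 were higher and 2 lower, with the growth factor feedback gene Phlda1 at 562 CPM in Bud and 342 CPM in het and the phosphatase Dusp6 at 25.1 CPM in Bud and 46.7 CPM in het. In cells with no Lgr5 UMI the log2 ratio of Dusp6 was 0.045. Of 15 p53 targets, 4 were higher and 1 lower, with the cyclin Ccng1 at 122 CPM in Bud and 75.6 CPM in het, while Cdkn1a, the cell cycle inhibitor p21, was at 157 CPM in Bud and 154 CPM in het. Of 14 measured glycolysis genes, 3 were higher and 1 lower. The hexokinase Hk2 stood at 120.5 CPM in Bud and 62.3 CPM in het, and the lactate exporter Slc16a3 at 127 CPM in Bud and 70.4 CPM in het. Of 17 oxidative phosphorylation genes, 1 was higher, Cox6c on chromosome 15. Of 11 measured genes of metallothionein and redox control, 4 were lower and 1 higher, with the quinone reductase Nqo1 at 15.8 CPM in Bud and 43.4 CPM in het and the glutathione peroxidase Gpx2, on chromosome 12, at 505 CPM in Bud and 275 CPM in het.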

How the data were processed

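Single-cell RNA from sorted wells was analysed in 2 of the 5 libraries, with the other 3 used for levels only. The submitters' processing notes name the GRCm38 build, the aligner STAR 2.6.1, the read counter featureCounts 1.5.2 and the toolkit Seurat 4.1.0. Strand and multi-mapping settings are not given in the sources used here. The tables deposited by the authors hold raw UMI counts and raw read counts per gene and well, and estimated counts of transcripts in which UMI counts were corrected for collisions between identifiers. Nothing was scaled to depth in them.

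UMI counts of kept cells (at least 1000 UMIs, at most 2% from Kcnq1ot1, spike-ins dropped) were summed per library and divided by the library total. Intervals are exact Poisson for levels, exact conditional binomial for ratios and Clopper-Pearson for shares, all at 95%. With 1 library a group, no p-value was computed. A gene needed 10 UMIs over both libraries, a call needed a ratio of 1.5 with an interval clear of 1, and log2 ratios had 10 CPM added. A level of 0 was bounded at 3 UMIs per library. No doublet caller was run on the sorted cells. Promoter windows came from RefSeq (GRCm38.p6).

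Genes named were the 15 highest and 15 lowest log2 ratios of genes detected in 10% or more of cells on their higher side, without ribosomal protein, predicted, Rik and spike-in genes. To these were added canonical markers, Stk11 and, from each of 43 lists, up to 4 members that reached 20 CPM in Bud or het. Other list members were named where a count was spelled out, after their values were seen. The members and lists were chosen with earlier results of these data known. Alternatives covered cell and gene limits, scaling, cell weights, the other tables, single cells and cells with or without Lgr5. Python 3.11.15, numpy 2.4.6, pandas 2.3.3, scipy 1.17.1 and matplotlib 3.10.9 were used, with edgeR 4.0.16 in R 4.3.3 for 1 scaling alternative.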

Additional observations from a re-analysis of the deposited data

How the results depend on the processing

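With a limit of 2-fold, 474 genes were higher in Bud and 715 lower, against 1043 and 1346 at 1.5-fold. Without chromosomes 1, 12, 15, Y and distal 4, chosen after seeing the data, 661 were higher and 1081 lower, and without distal 7 too 659 and 1042. Under the other alternatives 815 to 1321 genes were higher and 956 to 1552 lower. Of all calls, 43.7% were higher, 46.1% with TMM scaling and 54.7% in cells with no Lgr5 UMI. Of 2671 values of 162 named genes under the alternatives, 432 left the counting interval of the reported log2 ratio with no change of a called sign, among them 99 in cells with no Lgr5 UMI, 65 in cells with one, 72 against het cells with a low and 56 against those with a high chromosome 1 share. A further 9 changed the sign of a called log2 ratio. In cells with an Lgr5 UMI, Ang4 was at -0.12 and Muc2 at 1.48. In cells with no Lgr5 UMI, Dusp6 was at 0.045, Etv5 at 0.22, Itga6 at -0.051 and Mmp7 at 0.31. Against het cells with a low chromosome 1 share, Ghrl was at 0.033 and Itln1 at 0.11, and against those with a high share Muc2 was at 1.06. The cause was not tested. No paired analysis was possible because each group was 1 library. Depth limits genes under 10 UMIs, and no interval covers the spread between cultures.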
